A study of Arabidopsis thaliana with 12 samples.

Results

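The libraries described here are the 4 that carry replicate number 3 in an RNA-sequencing experiment on Arabidopsis thaliana seedlings, set against the 8 libraries that carry numbers 1 and 2. They were chosen by the replicate number in the sample labels, and they make up 4 of 12 libraries. The groups were nup85 seedlings with ABA, WT seedlings with ABA, nup85 seedlings with mock treatment and WT seedlings with mock treatment, with 3 libraries each. WT was Col-0, and nup85 was nup85-1, a single T-DNA insertion line of *NUP85* (AT4G32910), which encodes a subunit of the outer ring of the nuclear pore. All seedlings were 7 days old, whole, and grown on MS medium with sucrose. ABA seedlings spent 3 h in liquid medium with 50 µM abscisic acid, and per the labels mock seedlings spent 3 h in the same medium without it. The labels do not say whether replicates were separate cultures, nor at which hour of the day any library was collected, so p-values measure only the spread between these libraries, which may be technical. If the 4 replicate 3 libraries were handled as 1 batch, every p-value below measures how alike the shift was among the 4 groups, and batch and replicate number cannot be told apart.

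The counts covered 33602 genes, of which 33323 were nuclear. Of these, 20454 passed the low count filter and were tested. Total counts ranged from 13984255 to 29798437 in replicate 3 and from 6616931 to 27692679 in replicates 1 and 2, and in each group replicate 3 had the largest total. The part of depth in the results was not tested other than by thinning every library to the smallest total, which gave 2967 calls over the 4 groups, 2707 of them among the 3296 at full depth. Plastid and mitochondrial genes took 0.0628% to 0.608% of the counts in replicate 3 and 0.0693% to 3.75% in replicates 1 and 2. In whole seedlings, fewer cells of a type and less RNA per cell cannot be told apart. The seed storage and root markers, which could mark seedlings of another stage or composition, are given near the end.

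*NUP85* itself did not follow the labels in replicate 3. With ABA it had 17 CPM in nup85 and 29.3 CPM in WT in replicate 3, against 3.2 and 1.98 CPM in nup85 and 40 and 41.5 CPM in WT in replicates 1 and 2. With mock treatment it had 27.5 CPM in nup85 and 16.1 CPM in WT in replicate 3, against 3.54 and 1.73 CPM in nup85 and 31.3 and 29.1 CPM in WT in replicates 1 and 2. All 4 replicate 3 libraries lay between the genotypes of replicates 1 and 2, and in mock the library labelled nup85 replicate 3 held more *NUP85* than the library labelled WT replicate 3. AT5G35935, a pseudogene chosen after its values were seen because it separated the genotypes in replicates 1 and 2, had 15.8 CPM in nup85 and 21.8 CPM in WT in replicate 3, against 30.3 and 26.8 CPM in nup85 and 1.24 and 0.597 CPM in WT in replicates 1 and 2. The mock libraries had 22.6 CPM in nup85 and 11.2 CPM in WT in replicate 3, against 21.9 and 18.8 CPM in nup85 and 0.971 and 2.12 CPM in WT in replicates 1 and 2. Both WT replicate 3 libraries and the ABA library labelled nup85 replicate 3 lay between the genotypes for this gene, and the mock library labelled nup85 replicate 3 lay just above the other nup85 mock libraries. The results below were set over both genotypes, with genotype as labelled, and counts over all genes are also given without both libraries labelled nup85 replicate 3, except for the difference nup85 minus WT, which has no value without them. Counts for a gene list with ABA or mock treatment are given without them where they moved by over 1.5 times. The libraries labelled WT replicate 3 stayed in. They too lay between the genotypes for both genes, so counts without the nup85 pair still include libraries of uncertain genotype.

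The plant circadian clock is a loop of transcriptional regulators that take turns through the day. The MYB-related factors CCA1 and LHY are most abundant around dawn and repress genes of the evening, the pseudo-response regulators PRR9, PRR7, PRR5 and TOC1 follow in sequence and repress *CCA1* and *LHY* in return, and the evening complex of ELF3, ELF4 and LUX acts at dusk and into the night. RVE8 and its LNK partners activate evening genes. The CCA1 family binds a short promoter motif, the evening element, and basic helix-loop-helix and basic leucine zipper factors, many of them light regulated, bind the G-box.

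Promoters were read from the RefSeq sequence of the TAIR10.1 assembly as the 300 bases before each gene's annotated start. The evening element (AAAATATCT, either strand) was found in 8 of 14 promoters of an evening clock list (57.1%) and in 1 of 12 of a morning clock list (8.33%), against 2.96% of all 19917 promoters of coding genes tested. The G-box (CACGTG) was found in 2 of the 14 evening promoters (14.3%) and 7 of the 12 morning promoters (58.3%), against 8.16% of all. A related site, the CCA1-binding site (AAAAATCT, either strand), was found in 14.3% of the evening and 8.33% of the morning promoters, against 7.97% of all. It shared no bases with an evening element in any of these promoters. The 160 bases nearest the start are shown for 6 clock genes, 5′ to 3′ on the gene's own strand, with the evening element or its reverse complement AGATATTTT and the G-box in capitals. All 6 hold an evening element or a G-box there, so they do not represent the lists, whose shares are given above. A match is a description of the letters and not a measured binding site.
LHY, chr1:37872-38031, minus strand: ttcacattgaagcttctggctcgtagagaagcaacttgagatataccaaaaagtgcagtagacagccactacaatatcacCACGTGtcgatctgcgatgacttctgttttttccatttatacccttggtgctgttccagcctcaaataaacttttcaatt
RVE1, chr5:5692993-5693152, minus strand: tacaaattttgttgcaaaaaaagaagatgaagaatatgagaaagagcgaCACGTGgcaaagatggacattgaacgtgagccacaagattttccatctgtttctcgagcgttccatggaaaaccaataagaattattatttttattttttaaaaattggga
RVE7, chr1:6308244-6308403, minus strand: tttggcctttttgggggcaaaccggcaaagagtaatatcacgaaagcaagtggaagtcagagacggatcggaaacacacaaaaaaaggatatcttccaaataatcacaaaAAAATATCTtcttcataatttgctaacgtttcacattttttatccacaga
TOC1, chr5:24674803-24674962, plus strand: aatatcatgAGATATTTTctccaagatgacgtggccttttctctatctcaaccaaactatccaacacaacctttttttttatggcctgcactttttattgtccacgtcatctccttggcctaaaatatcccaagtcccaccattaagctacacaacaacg
BOA, chr5:24003728-24003887, plus strand: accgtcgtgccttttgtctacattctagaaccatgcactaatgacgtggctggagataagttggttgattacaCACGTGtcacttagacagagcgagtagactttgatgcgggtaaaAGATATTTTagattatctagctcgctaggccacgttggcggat
GRP7, chr2:9266558-9266717, minus strand: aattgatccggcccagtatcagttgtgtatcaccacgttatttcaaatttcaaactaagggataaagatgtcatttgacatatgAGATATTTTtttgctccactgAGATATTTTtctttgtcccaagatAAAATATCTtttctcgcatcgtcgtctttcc
LHY and RVE1 each show 1 G-box and no evening element in this stretch, and GRP7 shows 3 evening elements. RVE7 is the single morning list member with an evening element.

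Morning clock genes were higher in replicate 3. Of the 12 members tested, 11 were called higher and 1 lower with ABA, and 9 were called higher and 2 lower with mock treatment. Calls required both a fold of at least 1.5 and an adjusted p under 0.05 in edgeR's quasi-likelihood test of replicate 3 over replicates 1 and 2 (2 libraries against 4 within a treatment). Over all nuclear genes 15.6% were called higher and 12.4% lower with ABA, and 8.30% higher and 9.17% lower with mock treatment. These shares are the background for every list below. The median log2 fold change of the morning list was 2.38 with ABA and 1.84 with mock treatment, beside 0.01 and 0 over all genes tested. Over the 4 groups together 9 of 12 were called higher and 0 lower, beside 9.08% and 7.04% of all genes.

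*LHY* had the largest positive log2 fold change of the 26 clock genes with mock treatment. Its normalised level with ABA was 8.67 CPM in nup85 and 6.75 CPM in WT in replicate 3, against 1.04 and 0.803 CPM in nup85 and 0.849 and 0.821 CPM in WT in replicates 1 and 2, where the level (CPM) is the gene's share of its library's counts, scaled by TMM and given on the counts-per-1e6 scale. With mock treatment the level was 312 CPM in nup85 and 346 CPM in WT in replicate 3, against 9.38 and 9.86 CPM in nup85 and 6.71 and 5.31 CPM in WT in replicates 1 and 2. Replicate 3 was higher without overlap in both genotypes and both treatments. The log2 fold change was 3.11 (SE 0.21, adjusted p = 1.74e-06) with ABA and 5.41 (SE 0.16, adjusted p = 1.14e-08) with mock treatment, and the ABA value was smaller by a log2 difference of -2.31 (SE 0.29, adjusted p = 0.000313). *CCA1*, its closest relative, had 62.6 CPM in nup85 and 50 CPM in WT in replicate 3, against 7.3 and 6.18 CPM in nup85 and 5.48 and 4.33 CPM in WT in replicates 1 and 2 in ABA seedlings. In mock seedlings it had 329 CPM in nup85 and 318 CPM in WT in replicate 3, against 54.2 and 52.1 CPM in nup85 and 44.3 and 25.6 CPM in WT in replicates 1 and 2. Replicate 3 again lay above every other library of the same treatment, by log2 fold changes of 3.27 (SE 0.20, adjusted p = 8.53e-07) with ABA and 2.90 (SE 0.18, adjusted p = 1.45e-06) with mock treatment, whose difference of 0.37 (SE 0.28, adjusted p = 0.369) did not pass the test.

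The REVEILLE genes, which encode relatives of CCA1 and LHY, did not all move one way. *RVE8*, the activator of evening genes, had 5.75 to 7.27 CPM in replicate 3, against 1.19 to 3.27 CPM in replicates 1 and 2 with ABA. In mock seedlings it had 107 to 114 CPM in replicate 3, against 9.1 to 16.1 CPM in replicates 1 and 2, and its log2 fold changes were 1.79 (adjusted p = 7.59e-05) with ABA and 3.18 (adjusted p = 5.29e-07) with mock treatment. *RVE1*, which ties the clock to auxin synthesis, was higher at log2 1.92 (adjusted p = 6.76e-05) with ABA and 3.39 (adjusted p = 2.34e-06) with mock treatment. *RVE7* had 44.5 CPM in nup85 and 29.7 CPM in WT in replicate 3, against 6.4 and 6.86 CPM in nup85 and 5.34 and 5.97 CPM in WT in replicates 1 and 2 with ABA. With mock treatment the *RVE7* values were 13.8 CPM in nup85 and 11.1 CPM in WT in replicate 3, against 33.8 and 29.6 CPM in nup85 and 23.7 and 21.4 CPM in WT in replicates 1 and 2. Replicate 3 was thus above the other libraries with ABA and below them with mock treatment, and the difference between the treatments was 3.69 (SE 0.18, adjusted p = 1.04e-06). *RVE2* went the other way, with log2 fold changes of -0.62 (adjusted p = 0.0128) in ABA and 2.13 (adjusted p = 9.61e-06) in mock. With ABA the *RVE2* levels of the genotypes overlapped, from 61.3 to 127 CPM in replicate 3, against 123 to 155 CPM in replicates 1 and 2.

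All of the 4 LNK genes were higher in replicate 3 in each of the 4 groups. *LNK1*, a coactivator that works with RVE8, had 138 CPM in nup85 and 148 CPM in WT in replicate 3, against 16.9 and 17.6 CPM in nup85 and 11.6 and 9.55 CPM in WT in replicates 1 and 2 with ABA. The mock levels of *LNK1* were 224 CPM in nup85 and 231 CPM in WT in replicate 3, against 99.4 and 109 CPM in nup85 and 93.9 and 79.3 CPM in WT in replicates 1 and 2. No library of replicates 1 and 2 reached those of replicate 3 in either treatment, and the log2 fold change was larger with ABA (log2 3.41) than with mock treatment (log2 1.26), a difference of 2.15 (SE 0.24, adjusted p = 0.000145). *LNK2*, *LNK3* and *LNK4* were higher at log2 1.56, 3.11 and 2.18 with ABA and at log2 1.65, 1.96 and 1.71 with mock treatment.

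The daytime repressors *PRR9*, *PRR7* and *PRR5* set ABA and mock apart. *PRR9* had 97.8 CPM in nup85 and 60.7 CPM in WT in replicate 3, against 5.98 and 8.16 CPM in nup85 and 2.72 and 1.49 CPM in WT in replicates 1 and 2 with ABA. Its mock values were 38.9 CPM in nup85 and 39.1 CPM in WT in replicate 3, against 54.8 and 47.3 CPM in nup85 and 31.1 and 25.8 CPM in WT in replicates 1 and 2. With ABA replicate 3 was far above the rest, at log2 4.24 (SE 0.25, adjusted p = 8.6e-07), whereas with mock treatment it lay within their range (log2 0.04, SE 0.25, adjusted p = 0.928). *PRR7* had 139.7 CPM in nup85 and 200.5 CPM in WT in replicate 3, against 101 and 103 CPM in nup85 and 99.3 and 91 CPM in WT in replicates 1 and 2 with ABA. With mock treatment *PRR7* had 52.4 CPM in nup85 and 54.7 CPM in WT in replicate 3, against 199.7 and 188 CPM in nup85 and 229.7 and 245 CPM in WT in replicates 1 and 2. It was higher in replicate 3 with ABA (log2 0.78, adjusted p = 0.000928) and lower with mock treatment (log2 -2.00, adjusted p = 4.91e-06), without overlap in either. *PRR5* had 134 CPM in nup85 and 147 CPM in WT in replicate 3, against 122 and 125 CPM in nup85 and 74.5 and 70.5 CPM in WT in replicates 1 and 2 in ABA seedlings. In mock seedlings *PRR5* had 0.717 CPM in nup85 and 1.55 CPM in WT in replicate 3, against 48.7 and 49 CPM in nup85 and 72.4 and 59.1 CPM in WT in replicates 1 and 2. The mock libraries of replicate 3 were almost without *PRR5* reads, at 32 reads against 2087, which is 51.2-fold lower (95% interval of the counts alone 36.1 to 75). The difference of the replicate 3 effect, ABA minus mock, was 4.20 (SE 0.37, adjusted p = 3.86e-05) for *PRR9*, 2.78 (SE 0.20, adjusted p = 1.08e-05) for *PRR7* and 6.25 (SE 0.33, adjusted p = 1.7e-06) for *PRR5*.

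Evening clock genes were lower in replicate 3, and more so with mock treatment. Of the 14 members tested, 10 were called lower and 2 higher with ABA, and 14 lower and 0 higher with mock treatment. The list's median log2 fold change was -1.42 with ABA and -2.90 with mock treatment, and the difference ABA minus mock was called positive for 9 and negative for 0. Replicate 3 lay below both other libraries in each of the 4 groups for 11 of the 14, beside 11.0% of all genes, and above both for 0, beside 13.1%. Over the 4 groups 12 were called lower. *TOC1*, the last of the repressors in the daily sequence, had 95.9 CPM in nup85 and 127 CPM in WT in replicate 3, against 283 and 315 CPM in nup85 and 276 and 294 CPM in WT in replicates 1 and 2 with ABA. In mock seedlings *TOC1* had 18 CPM in nup85 and 15.1 CPM in WT in replicate 3, against 52.2 and 53.3 CPM in nup85 and 81.1 and 93.1 CPM in WT in replicates 1 and 2. Both genotypes were lower in replicate 3 without overlap, at log2 -1.40 (SE 0.20, adjusted p = 0.000219) with ABA and -2.02 (SE 0.21, adjusted p = 4.71e-05) with mock treatment. *PRR3*, a relative of *TOC1* that stabilises its protein, was lower at log2 -2.78 (adjusted p = 6.83e-05) with ABA and -2.61 (adjusted p = 0.000432) with mock treatment.

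Of the evening complex, *ELF4* had 7.18 to 14.2 CPM in replicate 3, against 27.5 to 47.4 CPM in replicates 1 and 2 with ABA. The mock libraries had 1.08 to 1.13 CPM in replicate 3, against 16.2 to 28.7 CPM in replicates 1 and 2. *ELF4* was lower at log2 -1.92 (adjusted p = 0.000178) with ABA and at log2 -4.21 (adjusted p = 1.34e-05) with mock treatment, and *ELF3* at log2 -1.13 with ABA and -1.39 with mock treatment. *LUX*, the DNA-binding member, was lower at log2 -2.82 (adjusted p = 1.08e-06) with mock treatment but at log2 -0.44 (adjusted p = 0.017) with ABA, which is under the 1.5-fold limit. Its relative *BOA* was lower at log2 -1.63 with ABA and -1.26 with mock treatment. *CHE*, a TCP factor that represses *CCA1*, was lower with mock treatment (log2 -1.27, adjusted p = 0.000327) and had a log2 fold change of -0.19 (adjusted p = 0.381) with ABA.

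*GI* and *FKF1*, whose proteins act together in light sensing before flowering, differed between the treatments. *GI* had 88.2 CPM in nup85 and 144 CPM in WT in replicate 3, against 55 and 58.6 CPM in nup85 and 54 and 51.9 CPM in WT in replicates 1 and 2 with ABA. Mock seedlings had 25.5 CPM in nup85 and 22.5 CPM in WT in replicate 3, against 108 and 106 CPM in nup85 and 125 and 162 CPM in WT in replicates 1 and 2. *GI* was therefore higher in replicate 3 with ABA (log2 1.06, adjusted p = 0.000837) and lower with mock treatment (log2 -2.36, adjusted p = 1.49e-05). *FKF1*, a blue light receptor and F-box protein, had 19.8 CPM in nup85 and 43.7 CPM in WT in replicate 3, against 91.2 and 83.9 CPM in nup85 and 57.1 and 61.7 CPM in WT in replicates 1 and 2 with ABA. With mock treatment its values were 0.0717 CPM in nup85 and 0.282 CPM in WT in replicate 3, against 19.4 and 17.5 CPM in nup85 and 38.3 and 41.9 CPM in WT in replicates 1 and 2. Replicate 3 was lower throughout, at log2 -1.20 (adjusted p = 0.00678) with ABA, and 164-fold lower in mock, from 5 reads against 1044 (95% interval of the counts alone 70 to 505).

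The clock-controlled genes *GRP7*, *GRP8*, *COR27* and AT4G33980 were lower in all 4 groups. *GRP7*, an RNA-binding protein that peaks in the evening and dampens its own transcript, had 454 CPM in nup85 and 517 CPM in WT in replicate 3, against 5497 and 4344 CPM in nup85 and 4613 and 5130 CPM in WT in replicates 1 and 2 with ABA. The mock seedlings had 39.3 CPM in nup85 and 69 CPM in WT in replicate 3, against 1856 and 1639 CPM in nup85 and 3059 and 2268 CPM in WT in replicates 1 and 2. Replicate 3 was lower without overlap in both treatments, with log2 fold changes of -3.34 (SE 0.21, adjusted p = 1.27e-06) with ABA and -5.37 (SE 0.24, adjusted p = 2.99e-07) with mock treatment. *COR27*, a cold-induced regulator of the clock, had 15.1 CPM in nup85 and 27.4 CPM in WT in replicate 3, against 212 and 185 CPM in nup85 and 234 and 219.5 CPM in WT in replicates 1 and 2 with ABA. In mock seedlings *COR27* had 0 CPM in nup85 and 0.0704 CPM in WT in replicate 3, against 3.73 and 3.06 CPM in nup85 and 7.15 and 8.64 CPM in WT in replicates 1 and 2. Its ABA log2 fold change was -3.36 (SE 0.18, adjusted p = 4.43e-07), and in mock seedlings 1 read stood against 200, a 157-fold lower level (95% interval of the counts alone 27.8 to 6230). *GRP8*, the closest relative of *GRP7*, was lower at log2 -1.45 with ABA and -2.97 with mock treatment, and how reads were divided between these similar genes is not known.

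**Figure D1:**
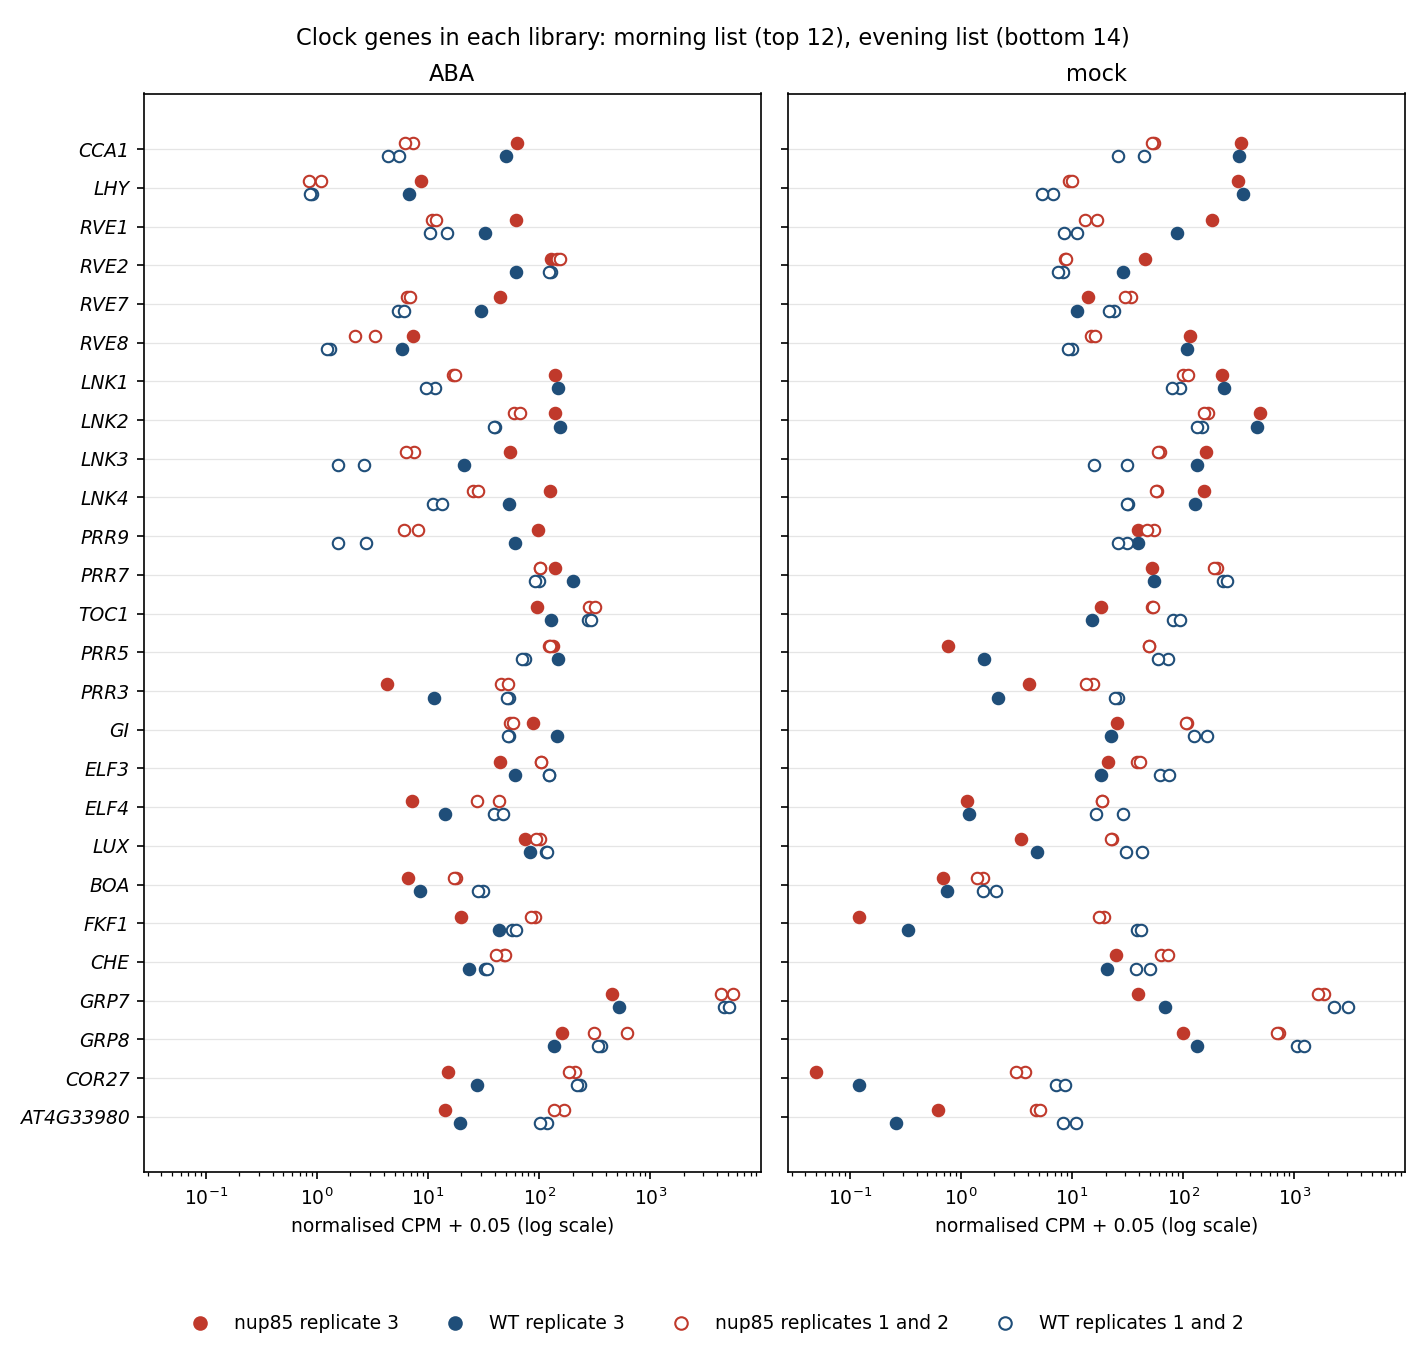
Normalised CPM (plus 0.05, log axis) of the 12 morning and 14 evening clock genes in every library, with ABA on the left and mock on the right. Filled points are replicate 3 and open points replicates 1 and 2, nup85 above WT in each row. *LHY* reached 312 to 346 CPM in mock replicate 3, against 5.31 to 9.86 CPM in mock replicates 1 and 2, and *GRP7* had 454 to 517 CPM in ABA replicate 3, against 4344 to 5497 CPM in ABA replicates 1 and 2.

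The shift was shared by the libraries labelled nup85 and WT, and only partly by both treatments. *NUP85* did not follow the labels in replicate 3, so sharing by both genotypes cannot be concluded. Replicate 3 differed from replicates 1 and 2 for 5735 genes with ABA (3200 higher, 2535 lower) and for 3572 with mock treatment (1697 higher, 1875 lower). With upper-quartile in place of TMM scaling the ABA split was 2657 higher and 3191 lower. Of the calls, 1676 were shared by the treatments, which is 29.2% of the ABA calls and 46.9% of the mock calls, and 1324 of these had the same direction (79%). The other 352 had opposite directions. Across genes, the deviation of replicate 3 from the mean of replicates 1 and 2 correlated at 0.77 between the ABA groups and 0.71 between the mock groups, but at 0.22 to 0.23 between an ABA and a mock group (20454 genes, which are not independent replicates). The deviation of replicate 1 from replicate 2 correlated at 0.13 between the ABA groups and 0.19 between the mock groups, and at -0.12 to 0 between an ABA and a mock group.

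In size, the median absolute log2 deviation of replicate 3 was 0.42 in nup85 ABA, 0.38 in WT ABA, 0.31 in nup85 mock and 0.35 in WT mock. Replicates 1 and 2 differed from each other by a median of 0.18, 0.14, 0.15 and 0.28 in the same groups. These medians are not on the same scale, since a deviation from a mean varies less than a difference between single libraries. The deviation of replicate 3 accounted for 85.5%, 88.4%, 80.8% and 72.9% of the sum of squares within these groups. The rest was the difference between replicates 1 and 2. If no library stood apart, these parts would be expected to be equal. Leaving out the library WT mock replicate 3 reduced the mock count to 1937, and leaving out both libraries labelled nup85 replicate 3 gave 4385 calls with ABA, 3120 with mock treatment and 2363 over the 4 groups.

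The difference of the replicate 3 effect between ABA and mock was called for 4690 genes at an adjusted p under 0.05, 2715 toward higher in ABA (13.3%) and 1975 toward lower (9.66%). With upper-quartile scaling the split was 2420 toward higher and 2429 toward lower. This equals the difference in the ABA response between replicate 3 and replicates 1 and 2. Without both libraries labelled nup85 replicate 3 the count was 2342, without WT mock replicate 3 it was 2703, and without nup85 mock replicate 3 it was 3039. The difference of the replicate 3 effect between nup85 and WT was called for 1 gene (0.00489%), which was *NUP85* (log2 3.70, SE 0.36, adjusted p = 0.0436). At an unadjusted p under 0.05 there were 362 genes (1.77%), and DESeq2 called 11. The call on *NUP85* was lost when any 1 library other than nup85 mock replicate 2 or nup85 ABA replicate 1 was left out. This fit pooled ABA and mock within each labelled genotype, so differences between the treatments entered its spread. For *PRR5* the SE was 2.11, against 0.33 for ABA minus mock. The small count thus cannot show that the labelled genotypes moved alike, and it is not comparable with 4690.

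The 5 genes with the smallest p for the ABA minus mock difference were all higher in replicate 3 with ABA and lower with mock treatment. *CIPK20*, a kinase of the calcium-dependent CBL network, had 51.8 CPM in nup85 and 58.5 CPM in WT in replicate 3, against 7.02 and 7.54 CPM in nup85 and 4.63 and 6.12 CPM in WT in replicates 1 and 2 with ABA. With mock treatment it had 3.58 CPM in nup85 and 4.93 CPM in WT in replicate 3, against 41 and 38.9 CPM in nup85 and 62.6 and 51.4 CPM in WT in replicates 1 and 2. Replicate 3 lay outside the other libraries in opposite directions, and the difference was 6.66 (SE 0.25, adjusted p = 2.69e-07). *CYP71B26*, a cytochrome P450, had 337 to 387 CPM in replicate 3, against 30.8 to 39.5 CPM in replicates 1 and 2 with ABA. Mock levels of *CYP71B26* were 36.1 to 47.8 CPM in replicate 3, against 135 to 178 CPM in replicates 1 and 2. AT1G70820, annotated as a phosphoglucomutase, AT4G16880, a leucine-rich repeat protein, and AT2G29170, a Rossmann-fold protein, had differences of 5.68, 6.15 and 7.16.

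A pair of genes of ABA and auxin biology, chosen after their values were seen, also differed between the treatments. *ABF1*, a basic leucine zipper factor of ABA signalling, had 62.1 CPM in nup85 and 97 CPM in WT in replicate 3, against 69.5 and 67.4 CPM in nup85 and 77.7 and 63.6 CPM in WT in replicates 1 and 2 with ABA. Its mock levels were 3.51 CPM in nup85 and 3.31 CPM in WT in replicate 3, against 48.3 and 48.4 CPM in nup85 and 66.2 and 66.1 CPM in WT in replicates 1 and 2. Replicate 3 stood apart in mock seedlings alone, so that ABA minus mock was 4.12 in nup85 and 4.85 in WT on the log2 scale in replicate 3, against 0.50 in nup85 and 0.09 in WT in replicates 1 and 2. *PIN3*, an auxin efflux carrier, had 15.9 CPM in nup85 and 12.6 CPM in WT in replicate 3, against 101 and 84.1 CPM in nup85 and 83.8 and 101 CPM in WT in replicates 1 and 2 with ABA. With mock treatment *PIN3* had 155 CPM in nup85 and 122 CPM in WT in replicate 3, against 99.6 and 95 CPM in nup85 and 73.4 and 87.3 CPM in WT in replicates 1 and 2. With ABA it was lower in replicate 3, at log2 -2.70 (adjusted p = 5.94e-07), and with mock treatment higher, at log2 0.64 (adjusted p = 0.00348).

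**Figure D2:**
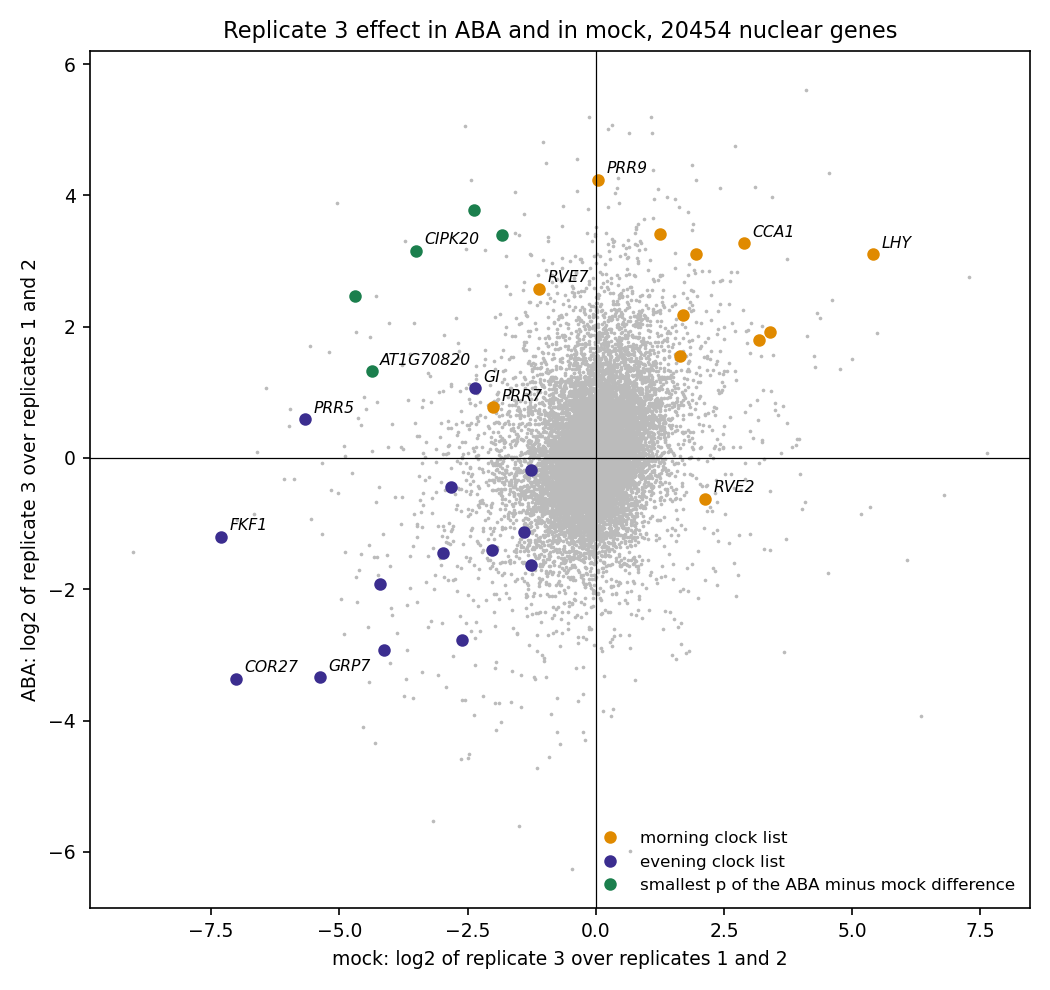
Log2 fold change of replicate 3 over replicates 1 and 2 with ABA (vertical axis) against that with mock treatment (horizontal axis) for 20454 nuclear genes (grey), with the morning clock list in orange, the evening clock list in purple and the 5 genes with the smallest p of the difference in green. *LHY* and *CCA1* lie at the upper right, *COR27* and *GRP7* at the lower left, and *PRR5*, *GI*, *PRR7* and *CIPK20* at the upper left.

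The genes that moved alike in both treatments carried the evening element and the G-box at other shares than all promoters. Of 562 promoters of genes called lower in ABA and in mock, 61 held an evening element (10.9%), as did 10 of 727 promoters of genes called higher in both (1.38%), beside 2.96% of all. The G-box was held by 37 of the 562 (6.58%) and by 130 of the 727 (17.9%), beside 8.16%. For the CCA1-binding site the shares were 9.25% and 8.25%, near the 7.97% of all. The G-box is not particular to clock genes. It was held by 30.8% of promoters of the ABA-responsive list and 14.3% of the heat shock list, both described below. The clock genes are among these sets, and the shares were not tested.

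**Figure D3:**
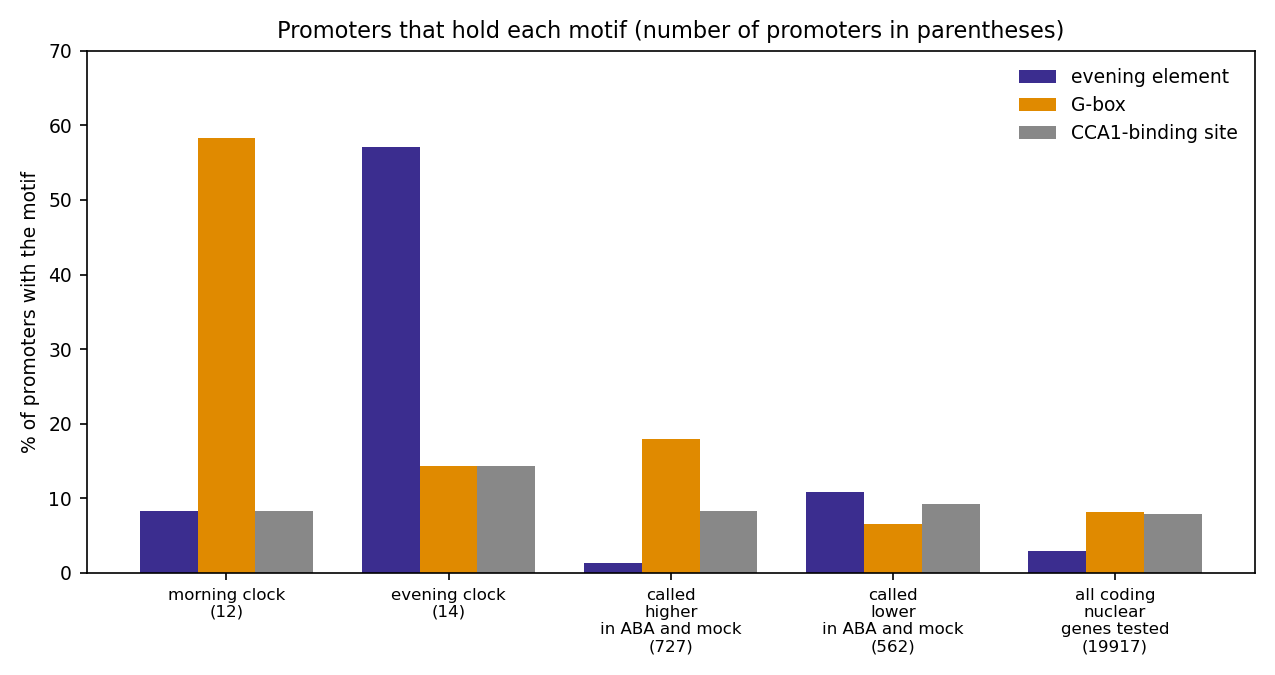
Percent of promoters (300 bases before the annotated start) that hold the evening element, the G-box or the CCA1-binding site in the morning and evening clock lists, in genes called higher or lower in both treatments and in all coding genes tested. The evening element was in 57.1% of the evening list and 10.9% of the genes called lower, and the G-box in 58.3% of the morning list and 17.9% of the genes called higher.

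Among 10 photoperiod genes, which link the clock to flowering, 5 were called higher and 1 lower with ABA, and 4 higher and 1 lower with mock treatment. The *CONSTANS-LIKE* genes *COL1* and *COL2*, dawn-phased zinc finger genes, had ABA log2 fold changes of 1.75 (adjusted p = 4.51e-05) and 0.58 (adjusted p = 0.0875), and mock values of 2.95 (adjusted p = 4.34e-06) and 3.17 (adjusted p = 1.59e-06). *COL2* had 223 to 243 CPM in replicate 3, against 14.7 to 42.1 CPM in replicates 1 and 2 with mock treatment. *CDF1*, a repressor of *CONSTANS*, was higher with ABA (log2 1.85) and mock treatment (log2 1.03). *CO* itself was lower with ABA, with a log2 fold change of -1.89 from 1.02 to 1.36 CPM in replicate 3, against 3.71 to 5 CPM in replicates 1 and 2.

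Shade and PIF target genes, which respond to phytochrome-interacting factors, were lower mainly with ABA. Of 8, 6 were called lower and 1 higher with ABA, and 1 lower and 0 higher with mock treatment. *IAA29*, an auxin response repressor, had 0.979 CPM in nup85 and 0.627 CPM in WT in replicate 3, against 49.2 and 54.4 CPM in nup85 and 29.4 and 27.1 CPM in WT in replicates 1 and 2 with ABA. The mock libraries had 2.37 CPM in nup85 and 1.2 CPM in WT in replicate 3, against 6.41 and 8.39 CPM in nup85 and 3.09 and 2.58 CPM in WT in replicates 1 and 2. Replicate 3 was lower without overlap in both treatments, at log2 -5.61 (adjusted p = 8.48e-08) with ABA and -1.49 (adjusted p = 0.000241) with mock treatment. *XTR7*, a cell wall xyloglucan enzyme, was lower at log2 -4.17 with ABA and had a log2 fold change of -0.24 (adjusted p = 0.554) with mock treatment. *ATHB2*, a shade-induced homeobox gene, was lower at log2 -1.66 with ABA.

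Of 18 cell expansion genes, 10 were called lower and 2 higher with ABA, and 5 lower and 1 higher with mock treatment. With both libraries labelled nup85 replicate 3 left out, 2 were called lower and 1 higher with mock treatment. The auxin-induced *SAUR19* to *SAUR24* were each lower with ABA, by log2 fold changes from -4.36 to -2.76, and not called with mock treatment (log2 -0.70 to 0.15). They are near-identical neighbours, so the division of reads among them is uncertain. *EXPA8*, an expansin, had 0.184 to 0.606 CPM in replicate 3, against 2.76 to 5.63 CPM in replicates 1 and 2 with ABA, and *EXPA11* was lower at log2 -1.50 with ABA and -1.19 with mock treatment. Of 27 cell division genes, 5 were called higher and 0 lower with ABA, 0 higher and 5 lower with mock treatment, and none over the 4 groups. Those higher with ABA were 18.5% of the list, near the 15.6% of all genes. Those lower with mock treatment were 18.5%, beside 9.17% of all genes. When the pair of libraries labelled nup85 replicate 3 was left out, 1 was called higher and 1 lower with ABA, and 0 higher and 2 lower over the 4 groups. The cytokinesis syntaxin *KNOLLE* had a log2 fold change of 0.15 (adjusted p = 0.459) with ABA and -0.70 (adjusted p = 0.00796) with mock treatment.

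Genes of light signalling and photoprotection were higher. Of 18, 11 were called higher and 1 lower with ABA, and 8 higher and 2 lower with mock treatment. *ELIP1*, an early light-induced chlorophyll-binding protein, had 24.5 CPM in nup85 and 26.8 CPM in WT in replicate 3, against 4.52 and 3.03 CPM in nup85 and 4.14 and 4.03 CPM in WT in replicates 1 and 2 with ABA. In mock seedlings *ELIP1* had 39.5 CPM in nup85 and 57.2 CPM in WT in replicate 3, against 7.56 and 8 CPM in nup85 and 9.62 and 9.4 CPM in WT in replicates 1 and 2. Each replicate 3 library was above all others of its treatment, and the log2 fold changes were 2.71 (adjusted p = 3.3e-07) with ABA and 2.47 (adjusted p = 5.29e-07) with mock treatment. *ELIP2* was higher at log2 2.01 with ABA and 3.25 with mock treatment, and *HYH*, a partner of the light regulator HY5, at log2 2.49 with ABA and 2.25 with mock treatment, while *HY5* was higher at log2 0.91 with ABA and 0.86 with mock treatment. *BBX22*, a B-box factor of seedling greening, was higher with ABA (log2 0.81) and lower with mock treatment (log2 -2.36).

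Flavonoid and anthocyanin genes were higher in both treatments, with 8 of 11 called with ABA and 9 of 11 with mock treatment and 0 called lower. *CHS*, the first enzyme of the pathway, had 126 CPM in nup85 and 91.8 CPM in WT in replicate 3, against 24.9 and 23.4 CPM in nup85 and 29.4 and 25.1 CPM in WT in replicates 1 and 2 with ABA. The mock values were 499 CPM in nup85 and 554 CPM in WT in replicate 3, against 181 and 157 CPM in nup85 and 116 and 108 CPM in WT in replicates 1 and 2. Replicate 3 was higher without overlap, at log2 2.07 (adjusted p = 8.72e-06) with ABA and 1.95 (adjusted p = 1.54e-05) with mock treatment. *PAP1*, a MYB activator of anthocyanin genes, was higher at log2 2.71 with ABA and 1.22 with mock treatment, and *DFR*, a late enzyme, at log2 1.79 with ABA and 1.87 with mock treatment. *DFR* in mock seedlings ran from 118 to 126 CPM in replicate 3, against 13.2 to 79.1 CPM in replicates 1 and 2.

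Light-harvesting and Rubisco small subunit genes were higher with ABA above all. Of 24, 15 were called higher and 0 lower with ABA, with a median log2 fold change of 0.80, and 3 higher and 0 lower with mock treatment, with a median of -0.15. Without both libraries labelled nup85 replicate 3, 9 were called higher and 0 lower with ABA. *RBCS1B* had 177 to 263 CPM in replicate 3, against 41.6 to 86.9 CPM in replicates 1 and 2 with ABA, and in mock 1138 to 1139 CPM in replicate 3, against 334 to 534 CPM in replicates 1 and 2. *LHCB2.4*, an antenna protein of photosystem II, was higher with ABA (log2 2.69) and had a log2 fold change of 0.22 with mock treatment. Copies within both families are similar, and the division of reads among them is uncertain. Of 13 chlorophyll synthesis genes, 7 were called higher and 2 lower with ABA, and 4 higher and 2 lower with mock treatment. The 2 lower ones were *PORA* and *PORB*, light-dependent protochlorophyllide reductases. *PORB* had 289.8 CPM in nup85 and 292 CPM in WT in replicate 3, against 668 and 774 CPM in nup85 and 513 and 504 CPM in WT in replicates 1 and 2 with ABA. Mock levels of *PORB* were 193 CPM in nup85 and 148 CPM in WT in replicate 3, against 1902 and 1756 CPM in nup85 and 2020 and 1433 CPM in WT in replicates 1 and 2, so that replicate 3 lay below without overlap, and more so in mock. *PORA* was lower at log2 -3.31 with ABA and -3.08 with mock treatment. *GUN5*, a magnesium chelatase subunit, was higher at log2 1.92 with ABA and 0.63 with mock treatment.

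Starch breakdown genes were lower, above all with mock treatment. Of 16, 5 were called lower and 3 higher with ABA, and 10 lower and 3 higher with mock treatment, with median log2 fold changes of -0.28 with ABA and -2.02 with mock treatment. *ISA3*, a debranching enzyme, had 42.9 CPM in nup85 and 67.2 CPM in WT in replicate 3, against 106 and 116 CPM in nup85 and 126 and 114 CPM in WT in replicates 1 and 2 with ABA. With mock treatment *ISA3* had 15.3 CPM in nup85 and 15.3 CPM in WT in replicate 3, against 110.4 and 119 CPM in nup85 and 122 and 127 CPM in WT in replicates 1 and 2. *ISA3* was lower in every replicate 3 library, at log2 -1.09 (adjusted p = 7.79e-05) with ABA and -2.96 (adjusted p = 4.77e-07) with mock treatment. The cytosolic glucan phosphorylase *PHS2* was lower at log2 -3.25 with mock treatment, *AMY3*, an amylase, at log2 -2.49, and *DPE1*, the disproportionating enzyme, at log2 -2.41. With ABA these were -0.29, 0.07 and -1.07, of which *DPE1* alone was called. *BAM3*, a chloroplast beta-amylase, went the other way and had 95 CPM in nup85 and 103 CPM in WT in replicate 3, against 36 and 44.5 CPM in nup85 and 33.5 and 33.5 CPM in WT in replicates 1 and 2 with ABA. The *BAM3* values in mock were 472 CPM in nup85 and 426 CPM in WT in replicate 3, against 73.4 and 64.6 CPM in nup85 and 104 and 128 CPM in WT in replicates 1 and 2. Also higher with mock treatment were *BAM1* (log2 1.14) and *BAM9* (log2 2.92).

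Genes induced by darkness and sugar shortage were lower in part. Of 19, 7 were called lower and 3 higher with ABA, and 8 lower and 1 higher with mock treatment. With ABA 36.8% were called lower, beside 12.4% of all genes, and 15.8% higher, near the 15.6% of all genes. With mock treatment 42.1% were called lower, beside 9.17%. *DRM1*, a dormancy-associated gene, had 74 CPM in nup85 and 52.4 CPM in WT in replicate 3, against 597 and 405 CPM in nup85 and 517 and 737 CPM in WT in replicates 1 and 2 with ABA. The mock libraries had 10.5 CPM in nup85 and 9.58 CPM in WT in replicate 3, against 47.9 and 38.4 CPM in nup85 and 73.9 and 51.1 CPM in WT in replicates 1 and 2. Replicate 3 was lower without overlap, at log2 -3.15 (adjusted p = 1.6e-05) with ABA and -2.36 (adjusted p = 0.000181) with mock treatment. *DIN1* was lower at log2 -1.79 with ABA and -1.82 with mock treatment, and the asparagine synthetase *ASN1* at log2 -1.27 with ABA and -1.15 with mock treatment. *DIN9*, a mannose-6-phosphate isomerase, had a log2 fold change of 0.42 (adjusted p = 0.0863) with ABA and was higher at log2 2.26 (adjusted p = 1.37e-05) with mock treatment.

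Many ABA-responsive genes were higher in mock replicate 3. Of 39, 9 were called higher and 3 lower with ABA, and 23 higher and 6 lower with mock treatment, and for 18 the difference ABA minus mock was called negative, against 7 positive. *RD20*, a caleosin, had 682 CPM in nup85 and 729.8 CPM in WT in replicate 3, against 132 and 148 CPM in nup85 and 255 and 198 CPM in WT in replicates 1 and 2 with ABA. In mock seedlings *RD20* had 101 CPM in nup85 and 106 CPM in WT in replicate 3, against 25 and 23.1 CPM in nup85 and 12.9 and 14.9 CPM in WT in replicates 1 and 2. It was higher in replicate 3 in both, at log2 1.99 (adjusted p = 1.62e-05) with ABA and 2.51 (adjusted p = 6.65e-06) with mock treatment. *HB12*, a homeobox gene of the ABA response, was higher at log2 0.77 with ABA and 2.30 with mock treatment, and *GOLS1*, a galactinol synthase, at log2 1.94 with ABA and 1.57 with mock treatment. The late embryogenesis genes *LEA4-5* and *LEA7* were higher with mock treatment, from 9.86 to 15 CPM in replicate 3, against 0.666 to 2.21 CPM in replicates 1 and 2 for *LEA4-5*, and were not called with ABA (log2 0.25 and 0.08). *ABI5*, a basic leucine zipper factor of the seed and seedling ABA response, was lower at log2 -1.13 with ABA and -1.43 with mock treatment. Other known ABA-induced members did not rise in mock replicate 3. There *RD29A* deviated from the mean of replicates 1 and 2 by log2 -0.79 in nup85 and -1.09 in WT. *COR47* deviated by -1.03 and -1.53, and *COR15A* by -0.1 and -0.16.

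Most genes of a cold and CBF list were lower with mock treatment. Of 7, 2 were called higher and 1 lower with ABA, and 0 higher and 6 lower with mock treatment. Other cold-induced genes were counted in the ABA-responsive list and varied. In mock, *COR15A* deviated from the mean of replicates 1 and 2 by log2 -0.1 in nup85 and -0.16 in WT. *KIN1* deviated by -0.44 and -0.52, and *COR15B* by -1.71 and -2.34. The CBF factors, which switch on cold tolerance genes and are gated by the clock, had mock log2 fold changes of -4.75 for *CBF1*, -3.02 for *CBF2* and -4.04 for *CBF3*. With ABA these were -0.23, 0.54 and 2.05, of which *CBF3* was called. The 3 genes are near-identical neighbours, so the division of reads among them is uncertain. *COR414-TM1*, a chloroplast membrane protein induced by cold, was lower at log2 -0.71 with ABA and -2.13 with mock treatment.

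Heat shock genes were higher, with 18 of 21 called higher and 0 lower with ABA, and 9 higher and 1 lower with mock treatment. *HSP70*, a cytosolic chaperone, had 279.7 CPM in nup85 and 336 CPM in WT in replicate 3, against 168 and 145 CPM in nup85 and 196 and 208 CPM in WT in replicates 1 and 2 with ABA. The mock levels were 354 CPM in nup85 and 286 CPM in WT in replicate 3, against 30.8 and 29.7 CPM in nup85 and 20.8 and 21.1 CPM in WT in replicates 1 and 2. The gap was wider in mock, at 3.66 (adjusted p = 1.14e-08), than with ABA, at 0.79 (adjusted p = 0.000169), a log2 difference of -2.87 (adjusted p = 2.24e-06). *HSFA2*, a heat-induced transcription factor, was higher at log2 1.39 with ABA and 4.27 with mock treatment. *HSP21*, a plastid small heat shock protein, had 6.48 to 17.5 CPM in replicate 3, against 1.11 to 6.89 CPM in replicates 1 and 2 with ABA, which overlapped, and at most 0.4 CPM in every mock library.

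Jasmonate genes were higher with ABA. Of 25, 22 were called higher and 0 lower with ABA, with a median of 1.61, and 3 higher and 2 lower with mock treatment, with a median of 0. The difference ABA minus mock was called for 17, toward higher in ABA. With both libraries labelled nup85 replicate 3 left out, the difference was called for 9, also toward higher in ABA, and 1 gene was called higher and 1 lower with mock treatment. *JAZ9*, a repressor of jasmonate signalling, had 466 CPM in nup85 and 223 CPM in WT in replicate 3, against 59.6 and 67.7 CPM in nup85 and 67.3 and 38.4 CPM in WT in replicates 1 and 2 with ABA. Mock levels of *JAZ9* were 116 CPM in nup85 and 58.4 CPM in WT in replicate 3, against 44.5 and 48.8 CPM in nup85 and 33.5 and 37.8 CPM in WT in replicates 1 and 2. *AOS*, an enzyme of jasmonate synthesis, had 273 to 461 CPM in replicate 3, against 61.4 to 96.2 CPM in replicates 1 and 2 with ABA, and its mock log2 fold change was 0.41 (adjusted p = 0.0964). *LOX3*, a lipoxygenase of the same pathway, had 216 CPM in nup85 and 103 CPM in WT in replicate 3, against 15.7 and 14.2 CPM in nup85 and 37 and 23 CPM in WT in replicates 1 and 2 with ABA. All ABA libraries of replicate 3 exceeded the others, that labelled nup85 most. *CYP94B3*, which inactivates the hormone, was higher at log2 1.71 with ABA and 1.40 with mock treatment.

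Touch and rapid wound genes, which respond within minutes to handling, were lower with mock treatment. Of 23, 7 were called higher and 2 lower with ABA, and 0 higher and 14 lower with mock treatment, with median log2 fold changes of 0.18 with ABA and -1.05 with mock treatment. When the pair of libraries labelled nup85 replicate 3 was left out, 4 were called higher and 1 lower with ABA. *ERF104*, an ethylene response factor, was lower at log2 -1.60 (adjusted p = 0.000332) with mock treatment and had a log2 fold change of -0.53 (adjusted p = 0.0574) with ABA. *TCH4*, a touch-induced xyloglucan enzyme, was lower at log2 -0.97 with ABA and -0.93 with mock treatment. *RRTF1*, a redox-responsive factor, had 35 to 50.6 CPM in replicate 3, against 2.39 to 8.84 CPM in replicates 1 and 2 with ABA and no more than 0.358 CPM in any mock library. Of 25 hypoxia genes, 13 were called higher and 1 lower with ABA, and 0 higher and 6 lower with mock treatment. Without both libraries labelled nup85 replicate 3, 5 were called higher and 2 lower with ABA. *SUS1*, a sucrose synthase, was higher at log2 1.48 with ABA and had a log2 fold change of 0.21 (adjusted p = 0.35) with mock treatment. *ACHT5*, a thioredoxin, was lower at log2 -0.85 with ABA and -1.22 with mock treatment, and *NIP2;1*, an aquaporin, was higher with ABA at log2 1.65. Of 15 salicylic acid and defence genes, 4 were called higher and 3 lower with ABA, and 1 higher and 4 lower with mock treatment. With ABA 26.7% were called higher and 20% lower, beside 15.6% and 12.4% of all genes. The mock shares were 6.67% and 26.7%, beside 8.30% and 9.17%. The transcription factor *WRKY70* was lower at log2 -1.02 with ABA and -1.34 with mock treatment, and with ABA *WRKY38* was higher at log2 3.04 and the glutaredoxin *GRX480* at log2 1.75. With ABA *WRKY38* deviated from the mean of replicates 1 and 2 by log2 4.74 in nup85 and 1.73 in WT, and *GRX480* by 2.76 and 0.85. *PR1*, a pathogenesis-related gene, went opposite ways in the labelled genotypes. It deviated by log2 1.66 in nup85 and -7.39 in WT with ABA, and by 4.24 and -7.6 with mock treatment. These deviations were taken with a prior count of 1 added before the log. In WT replicate 3 the log2 difference of ABA minus mock was 0, as in libraries without reads. The size of the WT deviations may therefore be set by the added count, and no interval is given. The source of this split was not tested.

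Of 15 iron genes, 1 was called higher and 4 lower with ABA, and 11 higher and 1 lower with mock treatment. With both libraries labelled nup85 replicate 3 left out, 1 was called higher and 1 lower with ABA. *IRT1*, the root iron transporter, had 30.4 CPM in nup85 and 5.46 CPM in WT in replicate 3, against 13.6 and 13.1 CPM in nup85 and 12 and 9.48 CPM in WT in replicates 1 and 2 with ABA. With mock treatment *IRT1* had 286 CPM in nup85 and 283 CPM in WT in replicate 3, against 31.7 and 19.1 CPM in nup85 and 41.3 and 28.4 CPM in WT in replicates 1 and 2. With ABA the levels overlapped, and with mock treatment replicate 3 was above all others, at log2 3.25 (adjusted p = 5.09e-05). *FRO2*, the ferric reductase of the root surface, was higher at log2 3.18 with mock treatment and had a log2 fold change of -0.07 (adjusted p = 0.905) with ABA. The factors *BHLH38* and *BHLH100*, which induce both, were lower with ABA (log2 -3.06 and -2.94) and higher with mock treatment (log2 1.56 and 1.81), with overlapping *BHLH100* levels with ABA, and *PYE*, another iron regulator, was higher at log2 2.36 with mock treatment. Among 9 sulfur genes, 4 were called higher with ABA and 3 with mock treatment, and 0 lower. When the pair of libraries labelled nup85 replicate 3 was left out, 1 was called higher in each treatment. *APR2*, a reductase of sulfate assimilation, was higher at log2 0.75 with ABA and 1.94 with mock treatment, *APR1* at log2 0.73 with ABA and 0.69 with mock treatment, and *GGCT2;1*, an enzyme of glutathione turnover, at log2 1.39 with ABA.

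Of 7 nitrate genes, 6 were called higher and 0 lower with ABA, and 0 higher and 2 lower with mock treatment. Without both libraries labelled nup85 replicate 3, 3 were called higher and 0 lower with ABA. *NRT2.1*, a nitrate transporter, had log2 fold changes of 1.62 with ABA and -5.21 with mock treatment, both called, and *NIA2*, a nitrate reductase, had a log2 fold change of 0.33 (adjusted p = 0.311) with ABA and -0.01 (adjusted p = 0.989) with mock treatment. Of 11 phosphate starvation genes, 0 were called with ABA, and 0 higher and 6 lower with mock treatment. With both libraries labelled nup85 replicate 3 left out, 1 was called lower with mock treatment. The lipid enzyme gene *MGD3* had 0.215 CPM in nup85 and 0.563 CPM in WT in replicate 3, against 1.63 and 9.46 CPM in nup85 and 1.59 and 37.9 CPM in WT in replicates 1 and 2 in mock seedlings. The libraries numbered 2 were the highest for this gene, and their part in the difference was not tested. *PAP17*, an acid phosphatase, had a log2 fold change of 0.16 (adjusted p = 0.662) with ABA and -0.39 (adjusted p = 0.34) with mock treatment.

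**Figure D4:**
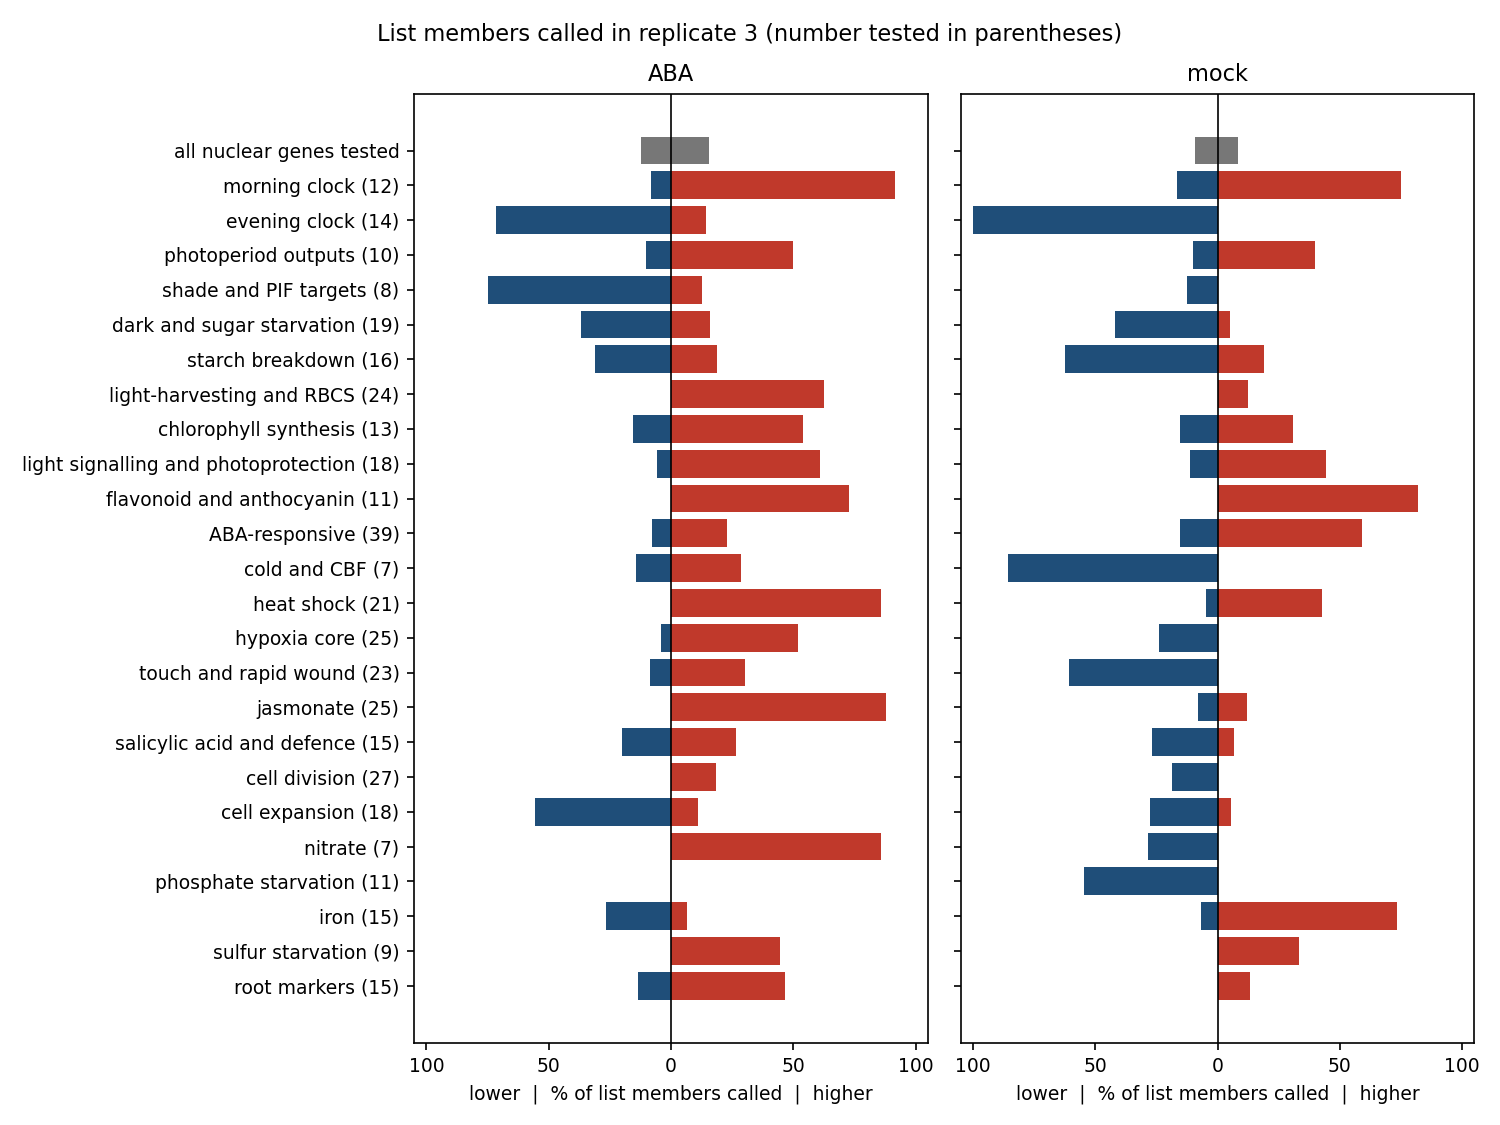
Percent of members called higher (red, to the right) or lower (blue, to the left) in replicate 3 for 24 gene lists, with ABA on the left panel and mock on the right, and the percent of all nuclear genes tested in grey. Among jasmonate genes 22 of 25 were higher with ABA and 3 of 25 with mock treatment, and among evening clock genes 10 of 14 were lower with ABA and 14 of 14 with mock treatment.

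The largest differences that held in each of the 4 groups were partly of the same kinds. Among the 10 highest were *LHY* and the B-box genes *BBX30*, *BBX31* and *BBX32*, which encode small zinc finger proteins of light signalling. *BBX32* had 13 CPM in nup85 and 1.33 CPM in WT in replicate 3, against 0.139 and 0.124 CPM in nup85 and 0.283 and 0.448 CPM in WT in replicates 1 and 2 with ABA. The mock libraries had 45.8 CPM in nup85 and 37.8 CPM in WT in replicate 3, against 3.92 and 2 CPM in nup85 and 0.53 and 1.21 CPM in WT in replicates 1 and 2. With ABA the library labelled nup85 replicate 3 was far above that of WT replicate 3, and both were above the rest. *BBX31* was higher at log2 3.97 (adjusted p = 6.82e-05) with ABA and 3.43 (adjusted p = 7.19e-05) with mock treatment, and *BBX30* at log2 4.76 (adjusted p = 1.7e-05) with ABA and 2.72 (adjusted p = 0.000163) with mock treatment. The cis-prenyltransferase gene *cPT4* had 8.99 to 12.5 CPM in replicate 3, against 1.81 to 2.86 CPM in replicates 1 and 2 with ABA, and in mock 149 to 169 CPM in replicate 3, against 3.79 to 9.47 CPM in replicates 1 and 2. *LEA3* (AT1G02820) was higher at log2 3.03 with ABA and 3.72 with mock treatment. AT5G04380, a methyltransferase, was higher at log2 4.13 and 3.11 with no library above 1.47 CPM.

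Several of the 10 rested on few reads in at least 1 treatment, AT5G04380 among them. By its levels above, *BBX32* also had few reads in replicates 1 and 2 with ABA, and no interval is given for it. *M17* (AT2G41260), a late embryogenesis protein gene, had 55 reads against 1 with ABA, a ratio of 81.8 (95% interval of the counts alone 14.1 to 3290), and 72 against 5 with mock treatment, a ratio of 18.4 (interval 7.51 to 58.2). AT2G27420, a cysteine proteinase, had 81.2 to 113 CPM in replicate 3, against 1.82 to 5.86 CPM in replicates 1 and 2 in mock and 9 reads against 2 with ABA, a ratio of 6.69 (interval 1.38 to 63.6). AT1G54870, a Rossmann-fold protein, had 86 reads against 20 with ABA, and 35 against 0 with mock treatment, which is at least 14.9-fold higher against a floor of 3 reads over the 4 libraries.

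The 10 lowest included *GRP7*, *COR27* and *IAA29*. *PHE1*, a MADS-box factor known from the endosperm, had 0.233 CPM in nup85 and 0.0369 CPM in WT in replicate 3, against 5.49 and 6.12 CPM in nup85 and 5.06 and 7.99 CPM in WT in replicates 1 and 2 with ABA. In mock the sum was 2 reads against 26, a 10.2-fold lower level (95% interval of the counts alone 2.55 to 88.7). AT2G33830, of the dormancy and auxin associated family like *DRM1*, had 27.4 CPM in nup85 and 38 CPM in WT in replicate 3, against 536 and 257 CPM in nup85 and 701 and 866 CPM in WT in replicates 1 and 2 with ABA. In mock seedlings AT2G33830 had 2.08 CPM in nup85 and 3.8 CPM in WT in replicate 3, against 40.6 and 38.9 CPM in nup85 and 126 and 76.6 CPM in WT in replicates 1 and 2. It was lower at log2 -4.10 (adjusted p = 6.97e-06) with ABA and -4.53 (adjusted p = 1.07e-05) with mock treatment. AT5G14920, a gibberellin-regulated family gene, was lower at log2 -3.66 with ABA and -3.56 with mock treatment, AT1G07050, a CCT motif gene, at log2 -3.63 with ABA and -3.73 with mock treatment, and AT4G06477 at log2 -3.13 with ABA and -4.02 with mock treatment. *IAA32*, an auxin response gene, had 7 reads against 262 with ABA and 2 against 17 with mock treatment. AT3G20760, of the Smc5/6 DNA repair complex, was lower at log2 -4.35 (adjusted p = 0.00732) with ABA and -4.30 with mock treatment (adjusted p = 0.0226) with 0.516 to 0.746 CPM in replicate 3, against 3.21 to 23.4 CPM in replicates 1 and 2 with ABA, so that replicates 1 and 2 also differed widely among themselves.

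**Figure D5:**
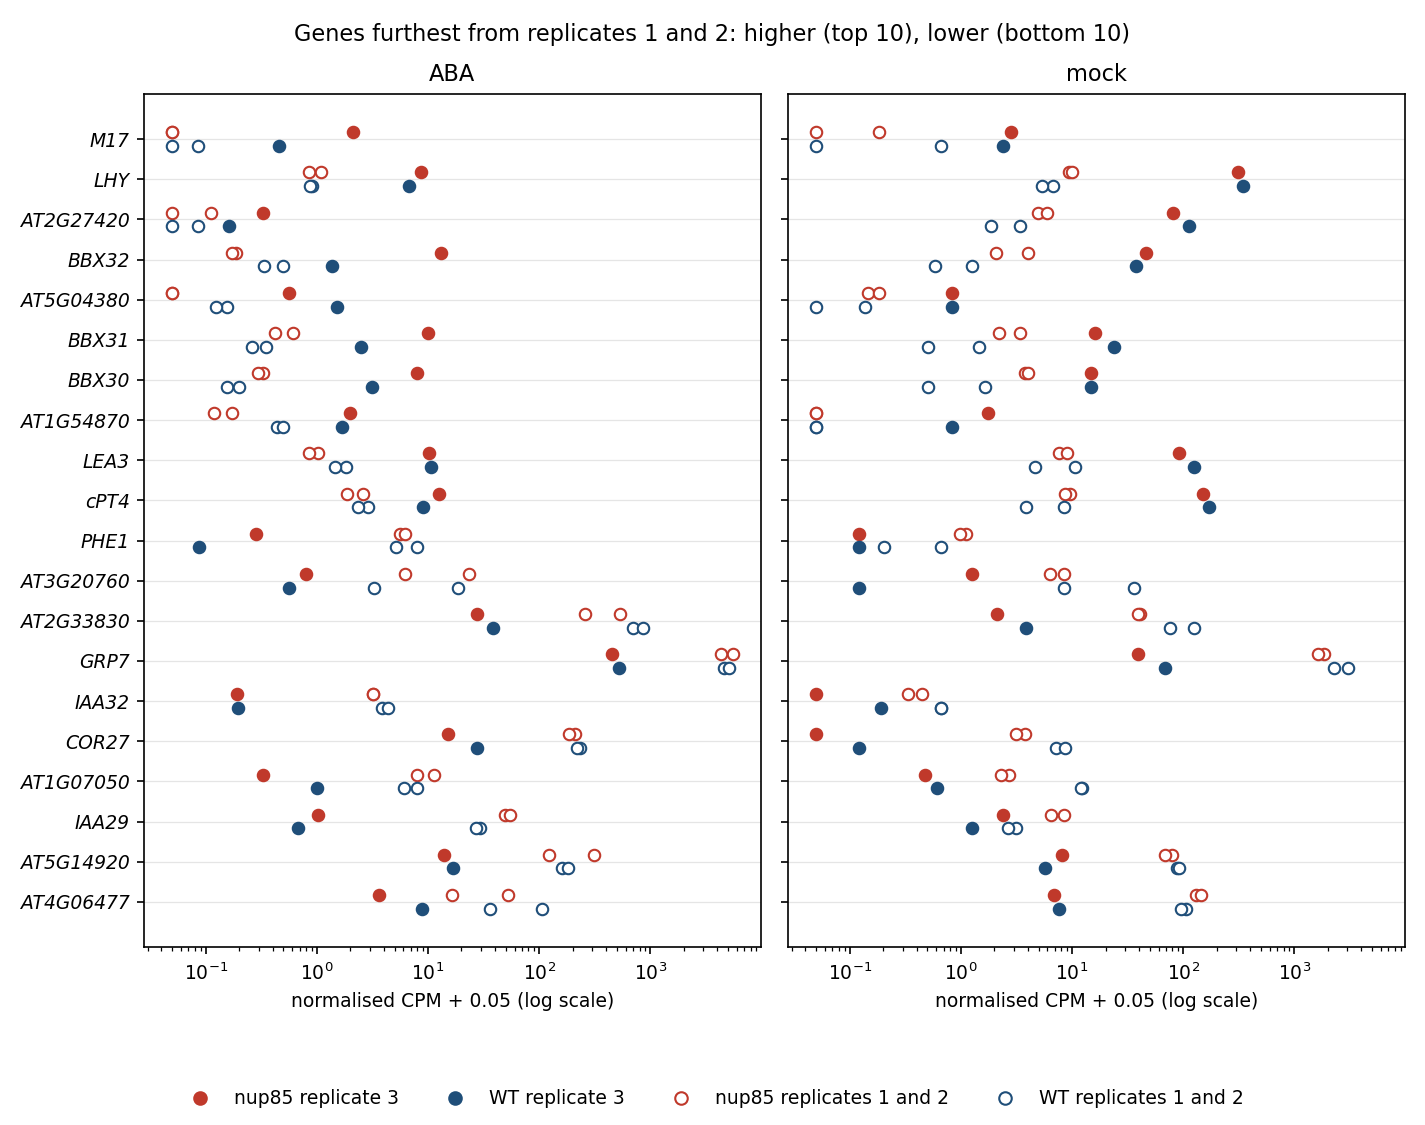
Normalised CPM (plus 0.05, log axis) in every library for the 10 genes with the largest positive and the 10 with the largest negative log2 fold change over the 4 groups, among genes whose replicate 3 lay outside both other libraries in each group, with ABA on the left and mock on the right. Filled points are replicate 3 and open points replicates 1 and 2. *BBX32* had 1.33 to 13 CPM in ABA replicate 3, against 0.124 to 0.448 CPM in ABA replicates 1 and 2.

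Several other clock-linked genes were named after their values were seen. *SIGE*, a plastid sigma factor under clock control, had 84.8 to 131 CPM in replicate 3, against 7.09 to 8.55 CPM in replicates 1 and 2 with ABA. Mock levels of *SIGE* were 183 to 188 CPM in replicate 3, against 30.9 to 67.8 CPM in replicates 1 and 2. *ASG4*, another REVEILLE family gene, was higher at log2 2.21 (adjusted p = 0.000256) with ABA and 4.32 (adjusted p = 3.91e-06) with mock treatment, and the B-box gene *STH* at log2 3.57 with ABA and 1.89 with mock treatment. *CCL*, whose transcript stability is under clock control, had 366 CPM in nup85 and 320.5 CPM in WT in replicate 3, against 1375 and 1615 CPM in nup85 and 1560 and 1719 CPM in WT in replicates 1 and 2 with ABA. The mock values of *CCL* were 43.4 CPM in nup85 and 28 CPM in WT in replicate 3, against 855 and 755 CPM in nup85 and 1171 and 830.1 CPM in WT in replicates 1 and 2. It was abundant in replicates 1 and 2 of both treatments and lower in replicate 3 without overlap.

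Markers of other stages and organs also moved. None of 6 seed storage genes passed the low count filter, but their summed counts in mock seedlings were 862 reads in the library labelled nup85 replicate 3 and 148 in WT replicate 3, against 4 to 7 in nup85 and 3 to 4 in WT in replicates 1 and 2. With ABA they were 14 and 5 reads in replicate 3, against 1 to 14 in replicates 1 and 2. Root markers had a read for 15 of 15 genes in every library, and their summed level was 161 to 171 CPM in replicate 3, against 107 to 130 CPM in replicates 1 and 2 with ABA, and 297 to 325 CPM against 196 to 278 CPM with mock treatment. Of these, 7 were called higher and 2 lower with ABA and 2 higher and 0 lower with mock treatment, among them the root hair genes *RSL4* (log2 2.18 with ABA) and *PRP3* (log2 2.48 with ABA). The summed light-harvesting and Rubisco genes, which are expressed in green tissue, were 48590 to 61710 CPM in replicate 3, against 24470 to 39510 CPM in replicates 1 and 2 with ABA. With mock treatment they were 79030 to 87880 CPM against 67080 to 104900 CPM. This sum also differed between ABA and mock within replicates 1 and 2, so it cannot be read as the amount of green tissue. The part of these markers in the results above was not tested.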

How the data were processed

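RNA from whole seedlings was sequenced in 12 libraries. The authors deposited whole-number read counts per gene, not normalised. The submitters' processing notes name FastQC, TopHat2, featureCounts and the TAIR10 build, with versions not given in the sources used here. Reads had been trimmed, and the authors tested single comparisons with DESeq2.

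Counts were fitted here with edgeR 4.0.16 (R 4.3.3) by TMM scaling, filterByExpr with a count minimum of 10 and the quasi-likelihood test, with the 4 groups as a factor and a term for replicate 3, over all groups or within each treatment or genotype. Plastid and mitochondrial genes were left out of the results. The SE is the log2 fold change divided by the square root of F. Benjamini-Hochberg adjustment ran over all genes tested, and differences between treatments or genotypes were called at an adjusted p under 0.05 alone. The code of the test was checked on simulated independent counts with the same spread for every gene. That check did not mimic a batch or the many differences between ABA and mock found here. It also did not judge the difference nup85 minus WT. DESeq2 1.42.0, other scalings, no filter, nuclear genes alone, a replicate block, thinning and leaving out each library were the alternatives. Ratios of few reads have exact intervals for counting error only (scipy 1.17.1).

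Named genes were all tested clock genes, the 3 called members of each other list with the largest change over the 4 groups (or the most abundant member where none was called), the 10 highest and 10 lowest genes outside replicates 1 and 2 in each group, the 5 genes with the smallest p of ABA minus mock, and *NUP85*. List members given beyond this rule were chosen after their values were seen. The replicate 3 comparison and the 25 gene lists were chosen with earlier results of these data known. Gene names came from a RefSeq table, which matched 32835 of 33602 IDs. Promoters were cut from the RefSeq genome TAIR10.1 with Python 3.11.15, and figures drawn with matplotlib 3.10.9. A further promoter sequence is not reported here.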

Additional observations from a re-analysis of the deposited data

Results flagged for a closer look

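The effect of replicate 3 differed between ABA and mock for 4690 genes, and between nup85 and WT for 1, which was *NUP85* (log2 difference nup85 minus WT 3.70). These counts come from fits of unlike spread and cannot be compared. Among the genes that the rule for named genes picked, the following differed between ABA and mock at an adjusted p under 0.05 by edgeR's quasi-likelihood test, with the log2 difference, ABA minus mock, in parentheses. A more positive effect with ABA was found for AT2G29170 (7.16), *CIPK20* (6.66), *PRR5* (6.25), AT4G16880 (6.15), *FKF1* (6.11), AT1G70820 (5.68), *CYP71B26* (5.21), *PRR9* (4.20) and *RVE7* (3.69). Next among them were *COR27* (3.66), *GI* (3.42), *PRR7* (2.78), *PRP3* (2.41), *LUX* (2.38), *PORB* (2.34), *ELF4* (2.29), *LNK1* (2.15) and *BBX30* (2.05). Smaller positive differences were found for *GRP7* (2.03), *LHCB4.3* (1.94), *ISA3* (1.87), *GRP8* (1.52), *JAZ9* (1.46), *COR414-TM1* (1.42), *DPE1* (1.34), *GUN5* (1.29) and *SUS1* (1.27). It was also found for *RBCS2B* (1.26), *CHE* (1.08), *ERF104* (1.08) and *KNOLLE* (0.85). A more negative effect with ABA was found for *IAA29* (-4.12), *XTR7* (-3.93), *FRO2* (-3.25), *IRT1* (-2.98), *HSFA2* (-2.88), *HSP70* (-2.87), *RVE2* (-2.75), *COL2* (-2.59) and *EXPA8* (-2.38). Smaller negative differences were found for *LHY* (-2.31), *cPT4* (-2.24), *PYE* (-2.08), *DIN9* (-1.84), *HB12* (-1.52), *RVE1* (-1.47), *RVE8* (-1.39), *ATHB2* (-1.25) and *ELIP2* (-1.24). They were also found for *COL1* (-1.20), *APR2* (-1.18) and *BAM3* (-0.91). With 3 libraries a group, no library was tested for standing apart within its group.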

How the results depend on the processing

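Leaving out 1 library at a time gave 2771 to 3838 calls over the 4 groups, 1937 to 3681 with mock treatment, 4406 to 5970 with ABA, 2703 to 5160 for the difference ABA minus mock, and 0 to 1 for the difference nup85 minus WT. The lowest mock count was that without WT mock replicate 3, and the difference ABA minus mock gave 2703 without that library and 3039 without nup85 mock replicate 3. Without both libraries labelled nup85 replicate 3, an alternative chosen after seeing the data, it gave 2342. For the difference nup85 minus WT, DESeq2 called 11 genes, the fit with no low count filter 2, and that on thinned counts, also chosen after seeing the data, 0. The causes were not tested.

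With the replicate number as a replicate block there were 3110 calls over the 4 groups, 3566 with mock treatment, 5710 with ABA, 4539 for ABA minus mock and 0 for nup85 minus WT. Deviations of libraries with the same number correlated at 0.21 to 0.60 for number 1, -0.05 to 0.54 for number 2 and 0.22 to 0.77 for number 3. Each deviation was from the mean of all libraries of the group, so the replicate 3 shift entered those of numbers 1 and 2 with opposite sign. Their correlations therefore cannot decide on pairing. Replicate 1 minus replicate 2, which leaves number 3 out, correlated at -0.12 to 0.19 between groups. The labels state no shared source, and the numbers were not taken to pair the libraries.

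Over the 4 groups, named genes kept direction and call in 1941 of their alternatives, lost the call in 111, gained it in 5 and changed sign in 20, and list medians kept direction in 48 of 48 under another scaling. With 1 library left out, the log2 fold change over the 4 groups ran from -1.05 to 0.10 for *PRR7*, -1.16 to 0.30 for *GI*, -0.22 to 0.06 for *PAP17*, -0.67 to 2.07 for *CIPK20*, -0.20 to 2.44 for AT4G16880, -1.89 to 0.37 for AT1G70820 and -1.48 to 1.15 for AT2G29170. It changed sign without WT mock replicate 3 for *PRR7* (0.10), *GI* (0.30), *PAP17* (0.05) and AT1G70820 (0.37), without nup85 mock replicate 3 for *PRR7* (0.06), *GI* (0.22) and AT1G70820 (0.35), and without WT mock replicate 2 for *PAP17* (0.06). It did so without WT ABA replicate 3 for *CIPK20* (-0.67), AT4G16880 (-0.20) and AT2G29170 (-1.48), and without nup85 ABA replicate 3 for *CIPK20* (-0.37) and AT2G29170 (-1.08). AT2G29170 also changed sign without WT ABA replicates 1 (-0.39) or 2 (-0.33), nup85 ABA replicates 1 (-0.18) or 2 (-0.26), and on thinned counts (-0.26). Without both libraries labelled nup85 replicate 3, *NIA2* (-0.15) and *NUP85* (-0.68) changed sign.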
